A study of Rattus norvegicus with 19 samples.

Results

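The genes described here build, fold and quality-check the secretory proteins of the liver in the endoplasmic reticulum (ER), together with the sensors and effectors of the unfolded protein response. They were taken from a list of 47 genes, and a gene was kept where a probe set of either array type was annotated to it alone. This held for 46 genes, of 13810 with such a probe set in all. Ern1, the IRE1 kinase, was not analysed here. Of the 46, 31 were stress sensors, their effectors and the folding and degradation genes they are known to induce, called sensors and targets below. The other 15 encoded the translocation channel, signal peptidase and oligosaccharyltransferase.

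Livers of adult rats were profiled 8 h after a single intraperitoneal injection given after an overnight fast. PCN livers came from rats that received pregnenolone-16α-carbonitrile at 100 mg/kg, a synthetic steroid and agonist of the pregnane X receptor of rodents, and corn oil livers from rats that received corn oil. The study asked whether PCN acts on genes beyond those of drug metabolism that could help an animal withstand stress. The labels name 5 biological replicates a group, hybridized to a first Affymetrix array type (10 arrays, 5 of each group) and a second one (9 arrays, 5 PCN and 4 corn oil, with no value for corn oil replicate 2). Strain, sex and exact age are not given in the sources used here. Whole liver was measured, so that a change in the number of cells of a type and a change of RNA per cell cannot be told apart.

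Secretory proteins enter the ER through the Sec61 channel, lose their signal peptide, receive glycans and fold with the help of chaperones and disulfide enzymes. When unfolded proteins build up, the membrane sensors IRE1, PERK and ATF6 signal to the nucleus through XBP1, ATF4 and ATF6 itself, and chaperone, disulfide and degradation genes are induced. The hepatocyte makes most plasma proteins and so carries a heavy secretory load, and the same sensors are known to act in its lipid and glucose metabolism.

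Many promoters of the response carry the ER stress element (ERSE, CCAAT and CCACG with 9 bases between them) or its short form ERSE-II (ATTGG and CCACG with 1 base between them), which ATF6 and XBP1 are known to bind together with NF-Y. Promoter windows of 300 bases, 250 before to 50 after a RefSeq start site on GRCr8, were matched for 39 of the 47 genes, and both strands were searched. ERSE was found in 8 of them (20.5%), Calr, Canx, Creld2, Dnajc3, Ero1b, Hsp90b1, Hspa5 and Xbp1, against 21 of all 27457 genes (0.0765%). ERSE-II was found in Dnajb11, Herpud1 and Hyou1 (7.69%), against 17 of all genes (0.0619%). The unfolded protein response element (UPRE, TGACGTGG) was found in Hyou1 alone (2.56%, against 0.681% of all genes), where it overlaps an ERSE-II, and the ATF4-type element TTGCATCA in Chac1 and Herpud1 (5.13%, against 0.827%). ERSE was itself defined on promoters of chaperone genes such as Hspa5, and ERSE-II likewise on promoters of this response. Their shares here are therefore no independent result. None of the 14 translocation and glycosylation genes with a window held any of the 4 motifs. The windows below show the elements in capitals in genes of each kind, as the strand of the gene reads from 5′ to 3′, so that an element on the opposite strand appears as CGTGG followed by ATTGG or CCAAT.
Hspa5 (chr3:38452963-38453001, plus strand): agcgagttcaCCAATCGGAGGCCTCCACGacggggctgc
Xbp1 (chr14:84604548-84604586, plus strand): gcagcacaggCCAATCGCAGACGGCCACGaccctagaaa
Creld2 (chr7:121789229-121789267, plus strand): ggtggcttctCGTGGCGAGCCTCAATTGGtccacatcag
Hyou1 (chr8:53602675-53602704, plus strand): agcaggccgcgaaccgtgaCGTGGGCCAAT
Dnajb11 (chr11:91672800-91672829, minus strand): tgtgatgtcccaggcggcgATTGGCCCACG
Herpud1 (chr19:10614821-10614850, minus strand): cgcctttccccgggcgctgATTGGGCCACG
The genes that passed the test after PCN, Dnajb9, Ppp1r15a and P4hb, held none of the 4 motifs in their windows, and their 250 bases before the start site are shown for comparison, with single CCAAT or CCACG boxes (on either strand) in capitals. The start used for Dnajb9 lies inside the annotated gene, 5320 bases downstream of its outermost start. Among the genes with an ER stress element, so do those used for Canx, Creld2, Ero1b and Herpud1, by 97, 630, 27986 and 9461 bases. Hyou1 had a window at its outermost start and another from a start 190 bases inside.
Dnajb9 (chr6:67002052-67002301, minus strand): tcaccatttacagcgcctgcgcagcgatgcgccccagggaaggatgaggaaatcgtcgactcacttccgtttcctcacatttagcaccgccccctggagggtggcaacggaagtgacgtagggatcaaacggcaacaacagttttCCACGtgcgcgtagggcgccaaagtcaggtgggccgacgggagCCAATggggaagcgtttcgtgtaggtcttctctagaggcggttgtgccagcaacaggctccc
Ppp1r15a (chr1:105139597-105139846, minus strand): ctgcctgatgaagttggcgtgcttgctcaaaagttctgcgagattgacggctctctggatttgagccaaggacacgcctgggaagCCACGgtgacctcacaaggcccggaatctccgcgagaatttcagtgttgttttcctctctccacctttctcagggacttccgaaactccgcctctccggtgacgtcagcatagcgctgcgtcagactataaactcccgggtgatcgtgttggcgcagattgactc
P4hb (chr10:106346912-106347161, minus strand): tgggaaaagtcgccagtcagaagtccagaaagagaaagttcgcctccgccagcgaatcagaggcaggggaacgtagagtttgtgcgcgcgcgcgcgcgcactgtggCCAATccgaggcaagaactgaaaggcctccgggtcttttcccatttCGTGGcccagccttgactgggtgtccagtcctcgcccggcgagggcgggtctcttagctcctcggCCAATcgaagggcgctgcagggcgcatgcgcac
The 11 genes with ERSE or ERSE-II had a median log2 fold change of 0.39 after PCN (range 0.13 to 0.78, none called at an adjusted p below 0.05), against 0.27 (range -0.35 to 0.92, 3 called) for the 28 with neither.

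The sample was liver by its markers, with 7 hepatocyte genes at a mean log2 level of 14.17 to 14.38 in PCN livers and 14.12 to 14.36 in corn oil livers. None of the 26 markers of 9 cell types tested on the first array type was called, and none of 13 on the second (limma, against 2.3% and 5.33% of all genes higher). At an unadjusted p below 0.05, 4 were higher and 3 lower on the first, against 11.1% and 6.69% of all genes. Higher were 2 stellate cell, 1 hepatocyte and 1 neutrophil marker (0.58). Lower were 2 red cell markers (median -0.49) and 1 lymphocyte marker. On the second, 2 were higher and 4 lower, against 18.3% and 10.6% of all genes. Higher were 1 Kupffer cell and 1 endothelial cell marker, and lower were 3 lymphocyte markers and 1 plasma cell marker. The Kupffer cell markers on the first array type had a mean level of 10.42 to 11.26 in PCN livers and 10.38 to 10.87 in corn oil livers (median log2 fold change 0.06). The 3 Kupffer cell markers of the second array type (Cd163, Cd5l and Adgre1) had a mean level of 8.57 to 9.61 in PCN livers and 8.27 to 8.99 in corn oil livers, with log2 fold changes of 0.40, 0.48 and 0.29, and their part in the results was not tested. Of the list for plasma cells, which also hold much ER, the first array type had Sdc1 alone (log2 fold change -0.12). Its level was 10.88 to 11.17 in PCN livers, and whole liver does not show which cells it came from. The second array type tested 3 plasma cell markers, none above 0 (median log2 fold change -0.09). The part of the other markers in the results was not tested either. Corn oil replicate 2 stood apart on the first array type, with a mean correlation of 0.953 with the other arrays, against 0.966 to 0.979 for the rest. Without it 4 of the listed genes were called (8.89%, against 2.53% of all genes higher), and with it 3 (6.67%, against 2.3%). PCN replicate 5 stood apart on the second, where it was as close to the corn oil arrays (0.978) as to the other PCN arrays (0.976). The part of these arrays in the results was not tested beyond the values given without them.

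On the first array type, 45 of the genes were measured, each by its brightest tested probe set. PCN raised the co-chaperone gene Dnajb9, the phosphatase subunit gene Ppp1r15a and the protein disulfide isomerase gene P4hb, and lowered none (limma, adjusted p below 0.05 over all probe sets). These 3 are 6.67% of the 45 genes, against 2.3% of all 8073 genes tested that were higher and 0.979% that were lower. A small shift upwards was spread much more widely. The log2 fold change was above 0 in 41 of 45 genes (91.1%, against 49.6% of all genes), its median was 0.33 (against -0.00 over all genes), and 24 genes (53.3%, against 11.1%) were higher at an unadjusted p below 0.05. None was lower at that threshold, against 6.69% of all genes. These genes were measured in the same livers and vary together, so the counts are not those of independent tests. The PCN and corn oil arrays did not overlap in 5 genes, all higher in PCN livers (11.1%, against 3.98% of all genes higher and 2.13% lower without overlap). With array quality weights, which raised the number of calls over all genes as well, 18 of the 45 genes were called higher (40.0%, against 7.33% of all genes higher and 2.42% lower).

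**Figure D1:**
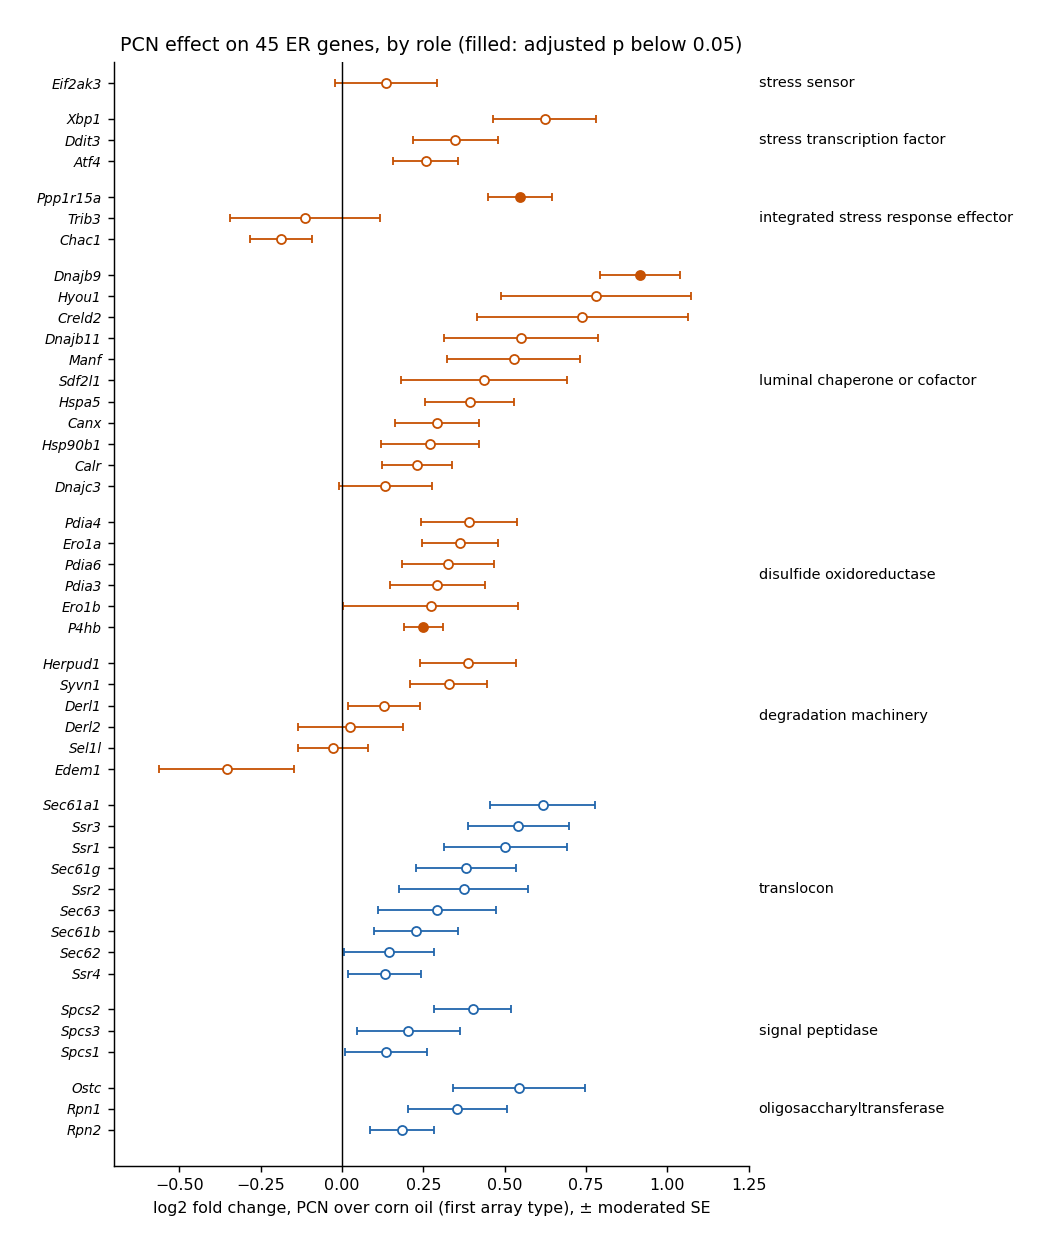
Log2 fold change of PCN over corn oil for the 45 genes on the first array type (points, with the moderated standard error), grouped by role, with sensors and targets in orange and translocation and glycosylation genes in blue. Filled points are the 3 called genes, Dnajb9, Ppp1r15a and P4hb; 41 of 45 points lie right of 0.

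Of the stress sensors on this array type, Eif2ak3, the PERK kinase, had log2 levels of 8.54 ± 0.33 in PCN livers and 8.40 ± 0.21 in corn oil livers (SD, n = 5 each). The groups overlapped over most of their range (log2 fold change 0.13 ± 0.16 SE, adjusted p = 0.703, limma).

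Xbp1, whose mRNA is spliced by IRE1 to give an active transcription factor, read 12.96, 13.10, 13.15, 12.85 and 12.17 in PCN livers, against 12.37, 12.34, 12.18, 12.13 and 12.10 in corn oil livers. Of the PCN livers, 4 lay above every corn oil liver, while PCN replicate 5 lay within the corn oil range. The means were 12.85 ± 0.39 in PCN livers and 12.22 ± 0.13 in corn oil livers (SD, n = 5 each), a 1.54-fold difference that narrowly missed the threshold (log2 fold change 0.62 ± 0.16 SE, adjusted p = 0.0571, limma). Without PCN replicate 5 the log2 fold change was 0.79 and Xbp1 was called (adjusted p = 0.00154). Leaving out the liver that made the groups overlap must widen the difference, so this call is no independent result. The same holds for the other genes below that were called without such a liver. Xbp1 was called under 4 of 23 alternative settings, and its adjusted p reached 0.135 (limma). The annotation used here does not separate spliced from unspliced Xbp1.

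Atf4, the factor translated when eIF2α is phosphorylated, read 11.31, 10.95, 11.40, 11.30 and 11.01 in PCN livers, against 10.95, 10.95, 10.94, 10.94 and 10.91 in corn oil livers. The groups did not overlap, but the lowest PCN liver lay only just above the highest corn oil liver, both printing as 10.95, and the difference was not called (log2 fold change 0.26 ± 0.10 SE, adjusted p = 0.200, limma). Ddit3, which encodes the pro-apoptotic factor CHOP, was among the dimmer of these genes, with 7.79, 7.52, 7.59, 7.99 and 7.33 in PCN livers, against 7.61, 7.36, 7.27, 7.14 and 7.10 in corn oil livers. Its groups overlapped, and it was not called (log2 fold change 0.35 ± 0.13 SE, adjusted p = 0.186, limma).

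Of the 3 effectors downstream of ATF4, 1 was called. Ppp1r15a, the GADD34 subunit that directs a phosphatase to eIF2α and so restores translation, read 8.83, 8.72, 8.87, 8.92 and 8.60 in PCN livers, against 7.99, 8.36, 8.23, 8.21 and 8.40 in corn oil livers. Every PCN liver lay above every corn oil liver. It rose 1.46-fold, with means of 8.79 ± 0.13 in PCN livers and 8.24 ± 0.16 in corn oil livers (SD, n = 5 each; log2 fold change 0.55 ± 0.10 SE, adjusted p = 0.0126, limma). The call was lost with the replicate number as a block (adjusted p = 0.0581) and kept under the other 22 alternative settings. Chac1, which breaks down glutathione, and Trib3, a pseudokinase, are both known ATF4 targets, and their log2 fold changes were -0.19 ± 0.10 SE (adjusted p = 0.336) and -0.11 ± 0.23 SE (adjusted p = 0.834, limma). The other Trib3 probe sets gave -0.18 and -0.19.

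Among the 11 luminal chaperones and their cofactors, every log2 fold change was above 0 (median 0.44, range 0.13 to 0.92), 7 were higher at an unadjusted p below 0.05, and 1 was called. That gene was Dnajb9, a J-domain partner of BiP that is known to hold IRE1 in check, with 10.25, 10.33, 10.76, 10.58 and 10.26 in PCN livers, against 9.59, 9.63, 9.43, 9.29 and 9.66 in corn oil livers. The groups did not overlap, and the lowest PCN liver stood well clear of the highest corn oil liver. It rose 1.89-fold, the largest change among the 45 genes by their brightest probe sets, with means of 10.44 ± 0.22 in PCN livers and 9.52 ± 0.16 in corn oil livers (SD, n = 5 each; log2 fold change 0.92 ± 0.12 SE, adjusted p = 0.00253, limma). Dimmer probe sets of Hyou1 (means of 9.50 in PCN livers and 8.51 in corn oil livers, adjusted p = 0.242) and Ssr3 (10.04 and 8.93, adjusted p = 0.156, limma) gave larger differences without a call. Both were low in corn oil replicate 2, the array that stood apart. Hyou1 read 7.10 there, against 8.37 to 9.98 in the other corn oil livers, and Ssr3 read 7.25, against 9.14 to 9.80. Of the 3 calls, only that of Dnajb9 was kept under all 23 alternative settings.

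Hspa5, which encodes BiP, the main luminal Hsp70 and the sensors' repressor, read 13.03, 12.73, 12.96, 13.02 and 12.67 in PCN livers, against 12.86, 12.62, 12.64, 12.14 and 12.20 in corn oil livers. The corn oil livers spread over a wider range than the PCN livers, and corn oil replicate 1 reached into the PCN values. The difference was 1.31-fold and was not called (log2 fold change 0.39 ± 0.14 SE, adjusted p = 0.157, limma). Hyou1, the exchange factor of BiP, read 11.20, 10.51, 11.14, 11.71 and 10.80 in PCN livers, against 11.27, 10.43, 10.31, 9.74 and 9.72 in corn oil livers. Corn oil replicate 1 lay above 4 of the 5 PCN livers, and the log2 difference of 0.78 ± 0.29 SE was not called (adjusted p = 0.183, limma). Without corn oil replicate 1 it was 1.02 and was called (adjusted p = 0.0460), but the adjusted p reached 0.374 under another alternative setting (limma).

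The stress-inducible luminal protein gene Creld2 read 10.98, 10.71, 10.75, 11.70 and 10.94 in PCN livers, against 11.39, 10.71, 10.09, 9.60 and 9.61 in corn oil livers. Its corn oil values spanned more than its PCN values, with replicate 1 high and replicates 4 and 5 low, and it was not called (log2 fold change 0.74 ± 0.32 SE, adjusted p = 0.260, limma). Dnajb11, another J-domain partner of BiP, showed the same arrangement of livers, with 10.00, 9.63, 9.89, 10.45 and 9.78 in PCN livers, against 10.07, 9.73, 9.45, 9.03 and 8.72 in corn oil livers (log2 fold change 0.55 ± 0.24 SE, adjusted p = 0.251, limma). Manf, a small factor that binds BiP and can be secreted, read 12.74, 12.10, 12.77, 13.12 and 12.49 in PCN livers, against 12.65, 12.25, 12.20, 11.79 and 11.70 in corn oil livers. Its corn oil replicate 1 lay above 2 PCN livers, and it was not called (log2 fold change 0.53 ± 0.20 SE, adjusted p = 0.201, limma). Canx, the membrane lectin chaperone calnexin, read 11.93, 12.02, 11.74, 12.20 and 12.17 in PCN livers, against 12.11, 11.40, 11.68, 11.68 and 11.74 in corn oil livers, with corn oil replicate 1 above 3 PCN livers (log2 fold change 0.29 ± 0.13 SE, adjusted p = 0.267, limma). Its other probe sets gave 0.21 and 0.66, the latter with 9.55 in corn oil replicate 2 against 11.62 to 11.87 in the other corn oil livers. Log2 fold changes were 0.44 for Sdf2l1, 0.27 for Hsp90b1 (GRP94), 0.23 for Calr (calreticulin) and 0.13 for Dnajc3, with adjusted p values from 0.289 to 0.670 (limma).

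**Figure D2:**
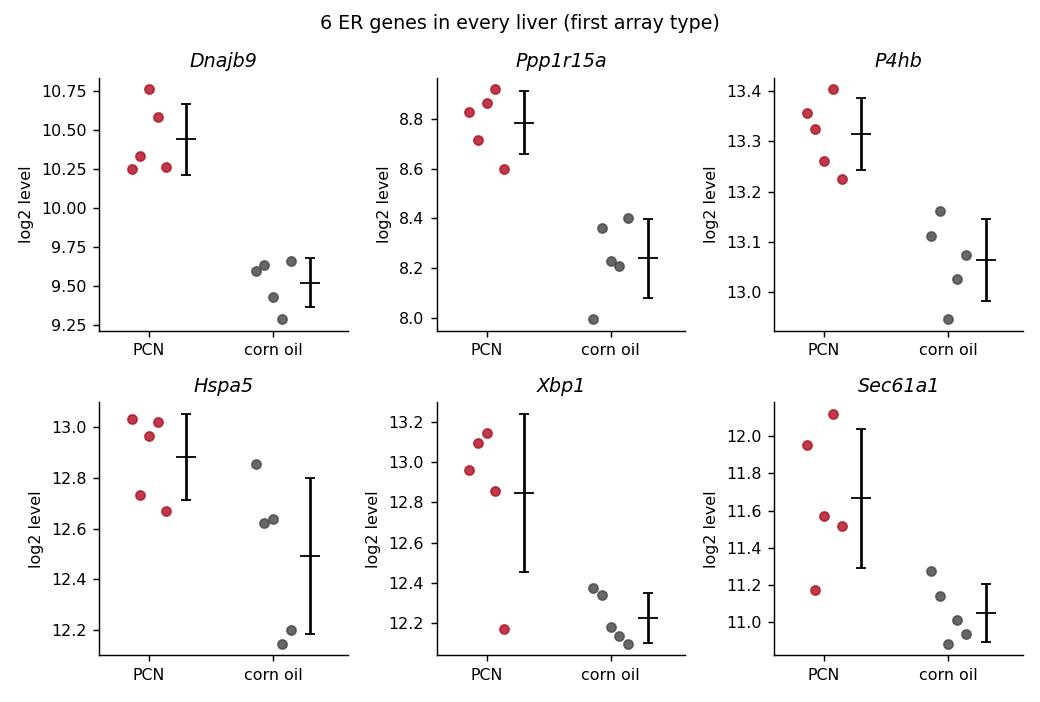
Log2 level of 6 genes in each PCN liver (red, left) and each corn oil liver (grey, right) of the first array type, with the mean and SD of each group (bars, n = 5); axes do not start at 0. The groups are apart for Dnajb9, Ppp1r15a and P4hb, overlap through corn oil replicate 1 for Hspa5 and through PCN replicate 5 for Xbp1, and overlap at the edge for Sec61a1.

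All 6 disulfide oxidoreductases had log2 fold changes above 0 (median 0.31, range 0.25 to 0.39), with 1 called. P4hb, protein disulfide isomerase itself and among the brightest of these genes, read 13.36, 13.32, 13.26, 13.40 and 13.22 in PCN livers, against 13.11, 13.16, 12.95, 13.03 and 13.07 in corn oil livers. Both groups were tight and did not overlap. It rose 1.19-fold, with means of 13.31 ± 0.07 in PCN livers and 13.06 ± 0.08 in corn oil livers (SD, n = 5 each; log2 fold change 0.25 ± 0.06 SE, adjusted p = 0.0448, limma), but the call lay close to the threshold and was lost under 19 of 23 alternative settings (adjusted p up to 0.228). Ero1a, the oxidase that recharges the isomerases, read 9.42, 9.11, 9.33, 9.40 and 9.39 in PCN livers, against 9.14, 9.19, 9.06, 8.77 and 8.68 in corn oil livers. Only PCN replicate 2 lay among the corn oil values, and Ero1a was not called (log2 fold change 0.36 ± 0.12 SE, adjusted p = 0.123, limma). Its other probe set gave -0.00.

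Pdia4, an isomerase of the BiP-bound complex, read 11.94, 11.83, 11.96, 12.07 and 11.89 in PCN livers, against 12.08, 11.41, 11.73, 11.34 and 11.19 in corn oil livers. Corn oil replicate 1 exceeded every PCN liver, and without it Pdia4 was called (adjusted p = 0.0338, against 0.190 with it, limma; log2 fold change 0.39 ± 0.15 SE with it). Under another alternative setting the adjusted p of Pdia4 reached 0.368 (limma). Pdia6, a related isomerase, read 12.39, 12.18, 12.28, 12.63 and 12.24 in PCN livers, against 12.49, 12.14, 11.93, 11.74 and 11.79 in corn oil livers, again with corn oil replicate 1 among the highest livers (log2 fold change 0.33 ± 0.14 SE, adjusted p = 0.252, limma). Pdia3, the partner of the lectin chaperones, and Ero1b had log2 fold changes of 0.29 and 0.27, neither called.

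The 6 genes of ER-associated degradation were mixed (median 0.08, range -0.35 to 0.39), and none was called, with 2 higher and none lower at an unadjusted p below 0.05 (limma). Herpud1, a stress-induced organizer of the ubiquitin ligase complex, read 11.94, 12.17, 12.43, 11.98 and 12.25 in PCN livers, against 11.60, 11.89, 11.30, 12.03 and 12.02 in corn oil livers. The groups overlapped through the high corn oil replicates 4 and 5 and the low PCN replicates 1 and 4 (log2 fold change 0.39 ± 0.15 SE, adjusted p = 0.193, limma). Syvn1, the HRD1 ubiquitin ligase, read 9.97, 9.94, 10.07, 10.47 and 10.16 in PCN livers, against 9.90, 9.91, 9.88, 9.57 and 9.71 in corn oil livers. Its groups just failed to overlap, without a call (log2 fold change 0.33 ± 0.12 SE, adjusted p = 0.171, limma). Sel1l, the adaptor of HRD1, and Derl2 had log2 fold changes of -0.03 and 0.03, Derl1 had 0.13, and Edem1, which marks misfolded glycoproteins for disposal, had -0.35 ± 0.21 SE (adjusted p = 0.414, limma).

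All 15 translocation and glycosylation genes had log2 fold changes above 0 on the first array type (median 0.35), against 49.6% of all genes. None was called, against 2.3% of all genes higher, and in none were the groups apart, against 3.98% of all genes higher. At an unadjusted p below 0.05, 7 were higher (46.7%, against 11.1% of all genes) and none was lower (against 6.69%, limma). The largest difference was that of Sec61a1, the pore-forming subunit of the channel, with 11.95, 11.17, 11.57, 12.12 and 11.52 in PCN livers, against 11.27, 11.14, 10.88, 11.01 and 10.94 in corn oil livers. Of the PCN livers, 4 lay above every corn oil liver, and PCN replicate 2 lay below corn oil replicate 1. The means were 11.67 ± 0.37 in PCN livers and 11.05 ± 0.16 in corn oil livers (SD, n = 5 each), a 1.53-fold difference (log2 fold change 0.62 ± 0.16 SE, adjusted p = 0.0618, limma). Without PCN replicate 2 it was called (log2 fold change 0.74, adjusted p = 0.0189). It passed under 8 of 23 alternative settings in all, and its adjusted p reached 0.149 (limma). Its other probe set gave 0.80, with 8.88 in corn oil replicate 2 against 10.44 to 11.05 in the other corn oil livers.

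Sec61g, the small subunit of the channel, read 12.23, 11.88, 12.15, 12.78 and 12.19 in PCN livers, against 12.02, 12.14, 11.85, 11.69 and 11.63 in corn oil livers. PCN replicate 4 stood above the rest and PCN replicate 2 among the corn oil values (log2 fold change 0.38 ± 0.15 SE, adjusted p = 0.221, limma). Of the TRAP complex beside the channel, Ssr3 read 12.00, 11.74, 11.75, 12.37 and 11.83 in PCN livers, against 11.59, 11.81, 11.23, 11.22 and 11.13 in corn oil livers, with overlap only through corn oil replicate 2 (log2 fold change 0.54 ± 0.16 SE, adjusted p = 0.0845, limma). Without that liver Ssr3 was called (adjusted p = 0.0316, limma), but its adjusted p reached 0.193 under another alternative setting. Its other probe sets gave 1.11, with a low value of 7.25 in corn oil replicate 2, and 0.28. Ssr1 read 10.45, 10.12, 10.32, 11.28 and 10.38 in PCN livers, against 10.22, 9.96, 9.83, 9.88 and 10.16 in corn oil livers. PCN replicate 4 was far above the other PCN livers, and PCN replicate 2 lay within the corn oil range (log2 fold change 0.50 ± 0.19 SE, adjusted p = 0.183, limma). The remaining 5 channel and TRAP genes had log2 fold changes of 0.37 (Ssr2), 0.29 (Sec63), 0.23 (Sec61b), 0.14 (Sec62) and 0.13 (Ssr4).

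Of the signal peptidase genes, Spcs2 read 11.64, 11.35, 11.37, 11.88 and 11.48 in PCN livers, against 11.39, 10.98, 11.18, 11.05 and 11.11 in corn oil livers. Only corn oil replicate 1 reached the PCN values, and Spcs2 was not called (log2 fold change 0.40 ± 0.12 SE, adjusted p = 0.0907, limma). Spcs3 and Spcs1 had log2 fold changes of 0.20 and 0.13. Of the oligosaccharyltransferase genes, Ostc read 11.80, 11.04, 11.68, 12.33 and 11.59 in PCN livers, against 11.56, 11.22, 11.06, 11.01 and 10.88 in corn oil livers. Only PCN replicate 2 lay within the corn oil range. Ostc was not called (log2 fold change 0.54 ± 0.20 SE, adjusted p = 0.183, limma), though it was without that liver (adjusted p = 0.0464). Under another alternative setting its adjusted p reached 0.353 (limma). Rpn1 read 12.10, 11.75, 11.79, 12.48 and 11.93 in PCN livers, against 11.90, 11.95, 11.46, 11.48 and 11.49 in corn oil livers, with both groups overlapping through corn oil replicates 1 and 2 (log2 fold change 0.35 ± 0.15 SE, adjusted p = 0.251, limma), and Rpn2 had a log2 fold change of 0.18.

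Set against each other, the sensors and targets held all 3 calls on the first array type (3 of 30 genes, or 10.0%, against 0 of 15). Of all genes tested there, 2.3% were called higher. The median log2 fold changes of the sensors and targets and of the translocation and glycosylation genes were 0.31 and 0.35. With array quality weights the shares were equal (12 of 30 and 6 of 15, 40.0% each, against 7.33% of all genes higher), and the difference in calls was not tested. Without PCN replicate 4 the median of the translocation and glycosylation genes was 0.19. The share of genes higher at an unadjusted p below 0.05 was 56.7% for the sensors and targets and 46.7% for the translocation and glycosylation genes. Over all genes it was 11.1%. Within each liver, the mean of the sensors and targets minus that of the translocation and glycosylation genes was -0.06, 0.14, 0.12, -0.24 and -0.09 in PCN livers, against 0.05, -0.05, 0.10, -0.02 and -0.07 in corn oil livers. Its sign was mixed in both groups.

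The livers of one group differed widely among themselves in these genes. Relative to the corn oil mean, the mean of the sensors and targets was 0.32, 0.15, 0.32, 0.54 and 0.21 in PCN livers, against 0.28, 0.11, -0.02, -0.15 and -0.22 in corn oil livers. The mean of the translocation and glycosylation genes was 0.37, 0.02, 0.20, 0.78 and 0.30 in PCN livers, against 0.24, 0.16, -0.12, -0.13 and -0.15 in corn oil livers. Corn oil replicate 1 thus stood among the PCN livers by both measures on the first array type. On the second, the mean of the 4 sensors and targets was 0.38, 0.07, 0.25, 0.46 and -0.05 in PCN livers, against 0.09 in corn oil replicate 1 and 0.02, 0.06 and -0.17 in replicates 3, 4 and 5. The mean of the 3 translocation genes there was 0.03 to 0.59 in PCN livers, against -0.05 in corn oil replicate 1 and 0.02, 0.01 and 0.02 in replicates 3, 4 and 5, so that this liver was the highest corn oil liver by one measure and the lowest by the other. PCN replicate 4 gave the highest PCN value in all 15 translocation and glycosylation genes and in 36 of the 45 genes (80.0%), against 27.5% of all genes tested. PCN replicate 2 gave the lowest PCN value in 14 of those 15 genes and in 30 of the 45 (66.7%, against 38.1% of all genes). Corn oil replicate 1 gave the highest corn oil value in 27 of the 45 (60.0%, against 22.0%) and in 9 of the 11 chaperone genes. The mean over all 8073 genes tested stayed between -0.04 and 0.07 in every liver. Corn oil replicate 1 was the highest corn oil liver for none of the 3 called genes. A high corn oil value itself works against a call, so this is no independent result. PCN replicate 4 was the highest PCN liver for Ppp1r15a (8.92) and P4hb (13.40), and PCN replicate 3 for Dnajb9 (10.76).

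**Figure D3:**
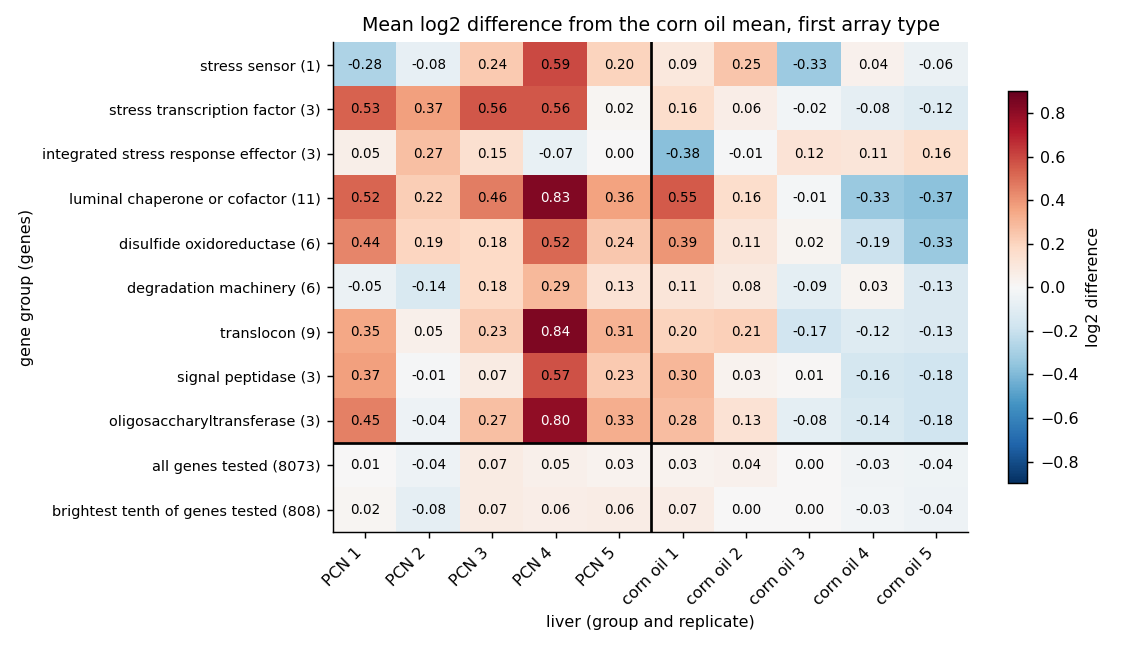
Mean log2 difference from the corn oil mean (colour and printed value) for each group of genes (down) in each liver of the first array type (across, PCN left of corn oil); the lowest pair of lines gives all genes tested and their brightest 10%. PCN 4 and corn oil 1 are the darkest red of their groups in the chaperone line (0.83 and 0.55), while the lines for all genes stay between -0.08 and 0.07 in every liver.

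These genes are abundant in liver. Of the 45, 24 lay in the brightest 10% of all genes on the first array type (from a log2 level of 11.2). That 10% as a whole had a median log2 fold change of -0.01, against 0.31 for the 24 genes within it and 0.33 for the other 21. On the second array type the brightest 10% had a median of 0.24, with 83.4% of its genes above 0, so a positive value of a bright gene there is the common case.

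**Figure D4:**
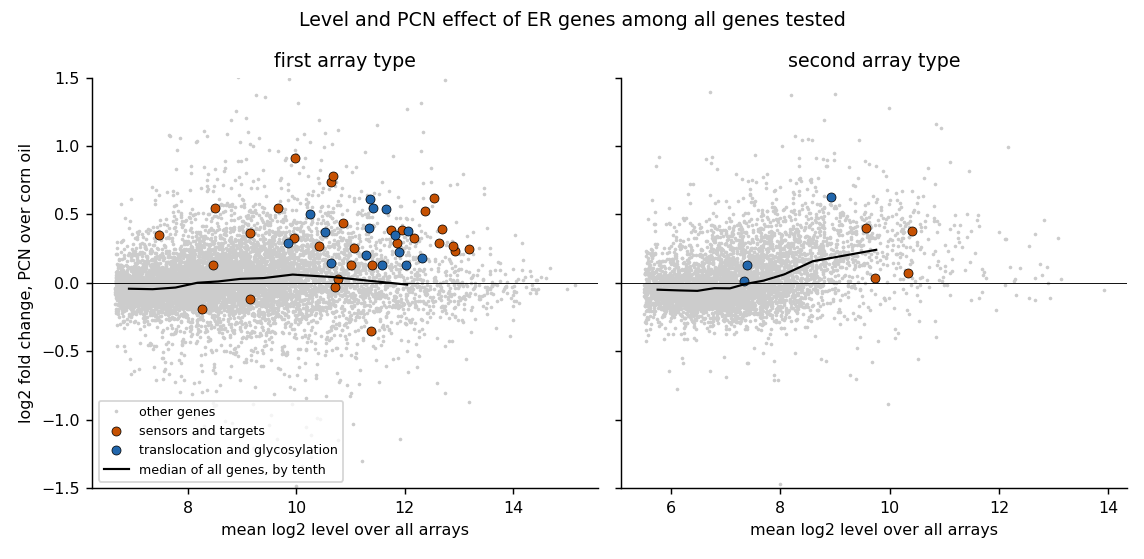
Log2 fold change of PCN over corn oil against mean log2 level for all genes tested (grey), sensors and targets (orange) and translocation and glycosylation genes (blue), with the median of all genes in steps of 10% by level (line), on the first (left) and second (right) array type. The axis ends at 1.5 either way and leaves out 14 and 2 genes; the line stays near 0 on the left and climbs to 0.24 in the brightest 10% on the right.

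The second array type measured 7 of the genes, and limma called none of them (0 of 7, against 5.33% of all 4688 genes that were higher and 1.19% lower). At an unadjusted p below 0.05, 3 were higher and none was lower (42.9%, against 18.3% and 10.6%). All 7 log2 fold changes were above 0 (median 0.13, against -0.00 over all genes). Of the 7, 4 lay in the brightest 10% of all genes on this array type. Their median was 0.23, against 0.24 for that 10% as a whole, where 83.4% of genes were above 0. The others of the 7 had a median of 0.13. Centring the arrays on the 100 probe sets that both array types share lowered every gene alike, to a median of -0.28 over all genes and of -0.15 over these 7. Such a shift cannot change the distance of the 7 from the median of all genes (0.13). After quantile normalization and cyclic loess that distance was 0.13 and 0.12, with 5 of the 7 above 0. For the 4 sensors and targets it was -0.01 and -0.03, against 0.23 as deposited. For the 3 translocation genes it was 0.13 and 0.14, against 0.13 as deposited. Atf6, the sensor that is cut in the Golgi to release a transcription factor, was measured here alone, with 10.72, 10.43, 10.68, 10.81 and 10.25 in PCN livers, against 10.05, 10.28, 10.15 and 10.31 in corn oil livers. PCN replicate 5 lay among the corn oil livers and the other PCN livers above them (log2 fold change 0.38 ± 0.12 SE, adjusted p = 0.0860, limma), and the other Atf6 probe set gave -0.01. Derl1, part of the channel for degradation, read 10.00, 9.57, 9.64, 10.01 and 9.48 in PCN livers, against 9.41, 9.38, 9.33 and 9.24 in corn oil livers. The groups did not overlap (log2 fold change 0.40 ± 0.12 SE, adjusted p = 0.0765, limma), and the same probe set on the first array type gave 0.34.

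Ssr1 on the second array type read 9.50, 8.84, 8.94, 9.98 and 8.77 in PCN livers, against 8.48, 8.70, 8.53 and 8.59 in corn oil livers. The groups did not overlap, and PCN replicate 4 was again the highest (log2 fold change 0.63 ± 0.21 SE, adjusted p = 0.0966, limma). Without PCN replicate 5, Atf6 (adjusted p = 0.0252), Derl1 (adjusted p = 0.0309) and Ssr1 (adjusted p = 0.0439) were all called (limma). These are 42.9% of the genes of the list on this array type, against 12.1% of all genes higher in that fit. PCN replicate 5 was the lowest PCN liver for each of them, so leaving it out must widen their differences. Over the alternative settings their adjusted p reached 0.460, 0.369 and 0.202 (limma). Arrays of 2 genes (28.6%) did not overlap, against 7.34% of all genes higher and 3.82% lower without overlap. Log2 fold changes were 0.13 for Sec63, 0.07 for Sel1l, 0.04 for Edem1 and 0.01 for Sec61a1. For Sec61a1 and Edem1 the probe sets of both array types are different and gave different values, 0.62 and -0.35 on the first. The other Edem1 probe set of the second array type gave 0.34 ± 0.19 SE (adjusted p = 0.260, limma).

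**Figure D5:**
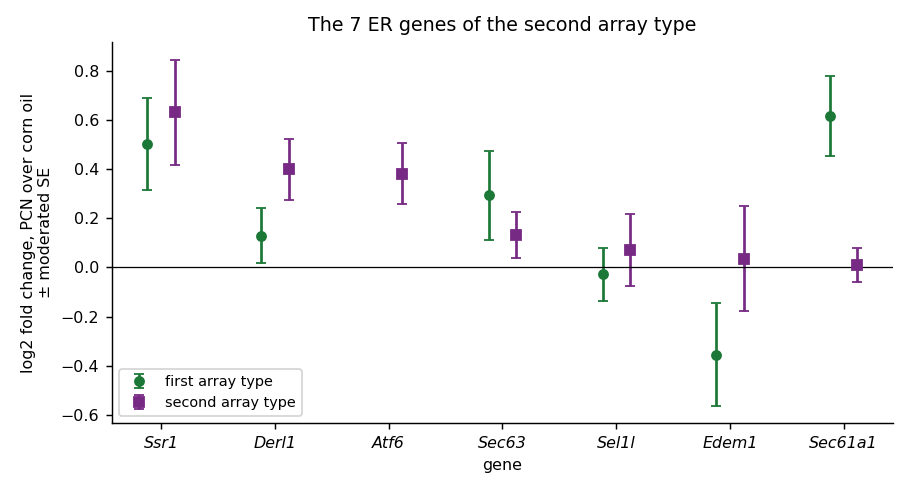
Log2 fold change of PCN over corn oil, with its moderated standard error, for the 7 genes of the second array type (squares) and for the same genes on the first (circles; Atf6 has no circle). Ssr1 is positive on both, and Sec61a1 has 0.62 on the first and 0.01 on the second.

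Other genes of the same pathway, 111 in 5 lists, were counted in the same fits. On the first array type 85 were tested, 3 were called higher (3.53%, against 2.3% of all genes) and none lower (limma). That share of calls was close to the one over all genes. The median log2 fold change was 0.19, and 68 of the 85 were above 0, against 49.6% of all genes. At an unadjusted p below 0.05, 25 were higher and 2 lower, against 11.1% and 6.69% of all genes (limma). Serp1, a small protein that sits on the Sec61 channel and protects membrane proteins under stress, read 12.83, 12.60, 12.94, 13.12 and 12.83 in PCN livers, against 12.48, 11.94, 12.09, 12.05 and 12.05 in corn oil livers, and the groups did not overlap. It rose 1.67-fold (log2 fold change 0.74 ± 0.12 SE, adjusted p = 0.00536). Ubxn4, of the degradation pathway, rose 1.43-fold (a log2 difference of 0.51 ± 0.12 SE, adjusted p = 0.0425), and Eif2s1, which encodes eIF2α, the substrate of PERK, rose 1.35-fold (log2 fold change 0.43 ± 0.10 SE, adjusted p = 0.0443, limma). Of 12 genes for targeting and signal sequences, 6 were higher at an unadjusted p below 0.05, against 4 of 19 for glycan building and trimming, 4 of 21 for folding and disulfides, 6 of 14 for degradation and 5 of 19 for stress signalling. Over all genes the share was 11.1%. Without PCN replicate 2 there were 7 calls (8.24%, against 3.29% of all genes higher). Without any one of corn oil replicates 1, 3 and 5 and PCN replicates 1, 3, 4 and 5 there was 1 (1.18%, against 1.11% to 2.04% of all genes higher).

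On the second array type 31 of these other genes were tested, with 10 called higher (32.3%, against 5.33% of all genes) and none lower (median 0.32; 20 higher, against 18.3% of all genes, and 1 lower at an unadjusted p below 0.05, limma). Of the 31, 13 lay in the brightest 10% of all genes, where 17.3% of all genes were called higher, and 5 of these 13 were called, as were 5 of the other 18. Of the 10, 4 belong to glycan building and trimming, 3 to degradation, 2 to folding and disulfides and 1 to targeting. The largest rises were those of the oligosaccharyltransferase subunits Tmem258 (0.84 ± 0.16 SE, adjusted p = 0.0161), Stt3a (0.76 ± 0.15 SE, adjusted p = 0.0184) and Dad1 (0.67 ± 0.17 SE, adjusted p = 0.0423, limma, log2 fold changes). Erp44, which retains oxidases in the early secretory pathway, rose as well (0.67 ± 0.15 SE, adjusted p = 0.0298). So did the prolyl isomerase gene Fkbp2 (0.54 ± 0.12 SE, adjusted p = 0.0325) and Ube2g2, which encodes a ubiquitin-conjugating enzyme of degradation (0.52 ± 0.11 SE, adjusted p = 0.0250). The first array type measured 4 of these, Dad1 by the same probe set and the others by different ones, and called none of them, with log2 fold changes of 0.33 for Dad1, 0.24 for Erp44, 0.12 for Fkbp2 and 0.26 for Ube2g2. Centring on the common probe sets, which lowered every gene alike, gave 4 higher and 5 lower among the 31 (12.9% and 16.1%), against 2.69% and 50.7% of all genes. Such a shift cannot change the distance of their median from that of all genes (0.32). That distance was 0.20 after quantile normalization and 0.17 after cyclic loess. Under each of these, 4 were called higher (12.9%, against 3.26% and 3.78% of all genes). Without corn oil replicate 4 limma called none of the 31 (against 0.747% of all genes higher), with 18 higher and 2 lower at an unadjusted p below 0.05. Without PCN replicate 5 it called 17 (54.8%, against 12.1% of all genes higher). Without any other single array except PCN replicate 2 it called 4 to 6 (12.9% to 19.4%, against 1.64% to 3.63% of all genes higher).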

How the data were processed

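Total RNA of adult rat liver was hybridized to 2 Affymetrix array types as biotin-labelled cRNA, per the labels' protocols. The deposited values are log2 expression per probe set, made by the authors before deposit. MAS5 is named per the submitters' processing notes, with no version, and the summarization, scaling and build are not given in the sources used here. The base of the logarithm was inferred from the range of the values. Each array type was fitted alone.

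Differences between PCN and corn oil were tested by limma 3.58.1 under R 4.3.3 (lmFit and eBayes with an intensity trend, treatment as the only term, two-sided). The 57 control probe sets of each type were dropped, and a filter at the 30th percentile of the mean (6.67 and 5.51) left 11106 and 10693. P-values were adjusted by Benjamini-Hochberg over these, with a threshold of 0.05. The fit was tested on simulated data. A gene was represented by its brightest tested probe set, and probe sets of several genes (312 and 100) or of none (2822 and 7663) were not named. The listed genes had 60 and 10 probe sets, of which 1 on each type fell below the filter. Ero1b kept another. Symbols came from GEO's platform annotation, checked by gene identifier against RefSeq GRCr8.

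All 47 genes are named by role. A value for every array is given for called probe sets, for genes at an unadjusted p below 0.05 and for Hspa5, Xbp1, Atf4 and Ddit3. Of the other ER genes, up to 6 called with the largest change are named on each array type. The genes, the lists and the tests were chosen with earlier results of these data known. P-values measure the spread between the replicates the labels name. Alternatives were other filters, pseudocounts, scalings, variance models, array weights, the replicate number as a block, other probe set rules and each array left out in turn. Arrays have no sequencing depth, and their number limits the precision.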

Additional observations from a re-analysis of the deposited data

Results flagged for a closer look

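In 5 of the 66 groups of 4 or 5 arrays that were checked, 1 array lay far from the others by Dixon's criterion, which chance alone meets in about 1 of 20 groups. On the first array type, the highest PCN liver for Creld2 (11.70, the next 10.98) and for Ssr1 (11.28, the next 10.45) was PCN replicate 4. The lowest corn oil liver for Atf4 read 10.91, where the others began at 10.94, a gap far smaller than the difference between the groups. On the second array type, the mean of the translocation and glycosylation genes, relative to the corn oil mean, was lowest in corn oil replicate 1 (-0.055, the next 0.012). The mean of all 7 genes was lowest in corn oil replicate 5 (-0.090, the next 0.022).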

How the results depend on the processing

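Of 1188 values of the listed genes under alternative settings, 1098 kept their direction and their side of the threshold, 34 became called, 20 lost a call and 36 changed direction, none of them called. Of the 20 lost calls, 19 were of P4hb and 1 was of Ppp1r15a, under the replicate block. The genes of the list called on the first array type (3) numbered 2 to 4 under every setting except array weights (18), and 2 to 4 with an array left out. On the second (0) they numbered 0 except with array weights (2, or 28.6%, against 11.6% of all genes higher) and with an array left out (0 to 3). Other ER genes called on the first array type (3) numbered 1 with no filter or a common median and 5 with a filter at the 50th percentile or cyclic loess. They numbered 20 with array weights (23.5%, against 7.33% of all genes higher) and 1 to 7 with an array left out. On the second (10, all higher) they numbered 4 after quantile normalization or cyclic loess, 5 under the replicate block, and 0 to 17 with an array left out. After centring on the common probe sets they numbered 9, of which 4 were higher and 5 lower. On the first array type Derl2 (0.03) was -0.016 with both pseudocounts, -0.017 with trimmed mean scaling, -0.041 after quantile normalization, -0.019 after cyclic loess, -0.054 after that centring, and -0.065 to 0.14 with an array left out, and Sel1l (-0.03) -0.11 to 0.021 with an array left out. On the second, with both pseudocounts, trimmed mean scaling and that centring, Edem1 (0.04) was -0.021, -0.022, -0.021 and -0.24, and Sec61a1 (0.01) -0.044, -0.041, -0.045 and -0.27. Edem1 was -0.063 and Sec61a1 -0.0039 with array weights. Edem1 was -0.19 after quantile normalization and -0.16 after cyclic loess, and Sel1l (0.07) -0.18 and -0.17, with -0.21 after that centring, where Sec63 (0.13) was -0.15. With an array left out, Edem1 was -0.23 to 0.15, Sel1l -0.018 to 0.16 and Sec61a1 -0.030 to 0.039. That centring, which shifts all genes of an array type alike, moved the median log2 fold change of all probe sets of the second array type to -0.31 (as deposited -0.03). With it, the median of the sensors and targets was -0.053 and that of the translocation and glycosylation genes -0.15. The median of the sensors and targets there was -0.020 after quantile normalization and -0.015 after cyclic loess. The cause of these differences was not tested. The deviations of same-numbered PCN and corn oil arrays had correlations of mixed sign on the first array type (lowest -0.30, highest 0.28). For the second array type these correlations were all small and positive (lowest 0.02, highest 0.20). No correlations of differently numbered arrays were set beside them, so whether the numbers pair the livers was not tested. With the replicate number as a block 2 genes were called on the first array type, with Ppp1r15a at an adjusted p of 0.0581, P4hb at 0.0891 and Xbp1 at 0.0430 (limma).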
